A study of Mus musculus with 16 samples.

Results

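The comparison set the livers of mice given both a glucagon receptor agonist and a high-protein diet against the livers of mice given neither. Members were the libraries labelled G108 with high protein (G108 HP, n = 4 mice) and those labelled vehicle with standard protein (vehicle SP, n = 4 mice), which made 8 of the 16 libraries of the series. Genes whose TPM averaged 1 or more over the 16 libraries were tested, which left 11839 of 55487 genes in the table. TPM are transcript shares, read counts divided by exon length and rescaled so that each library has the same total, and a gene was called at a Benjamini-Hochberg adjusted p under 0.05.

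All mice were male C57BL6/J, 10 weeks old according to the sample records, and had eaten a diet with 60 kcal% fat (D12492) for 8 weeks before they were housed individually. The vehicle SP mice were then fed a high-fat diet of standard protein content (D08091803) and injected subcutaneously with vehicle. The G108 HP mice were fed the matching high-fat diet of high protein content (D08091801) and injected with G108 at 2.5 nmol/kg. Injections were daily for 22 days in both groups, and the animals were culled on day 25 after a 4 h fast. The other groups of the series received only the drug (G108 SP, n = 4) or only the diet (vehicle HP, n = 4), so the main comparison changed drug and diet together and their parts in it cannot be told apart from these 8 libraries alone. Whole liver of male mice on a fattening diet was sampled at 1 time point, with 1 library per mouse, and p-values measure the spread between mice.

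Glucagon is the pancreatic hormone of fasting. It binds its receptor on hepatocytes, where the stimulatory G protein raises cyclic AMP, protein kinase A phosphorylates the transcription factor CREB, and genes for gluconeogenesis are switched on. The same hormone governs amino acid disposal by the liver, which takes up amino acids, removes their nitrogen through the urea cycle and turns their carbon skeletons into glucose. A diet rich in protein also raises the enzymes of amino acid breakdown. G108 is a long-acting glucagon analogue.

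Read depth, recovered from the steps between low TPM values, was 33390000 to 45030000 reads in vehicle SP and 30450000 to 36520000 in G108 HP. Of 139184 low values checked, 98.8% came out whole to within 0.02 reads. Libraries of a group correlated across genes at r = 0.93 to 0.98 in vehicle SP and 0.96 to 0.99 in G108 HP. The liver label fitted the markers, with albumin at 10855 ± 3913 TPM (SD, n = 4) in vehicle SP and 11009 ± 2806 TPM (SD, n = 4) in G108 HP, and the summed level of the 9 matched hepatocyte genes spanned 11206 to 27148 TPM and 16982 to 34130 TPM. Of 11 tested Kupffer cell, 3 stellate, 6 endothelial, 1 cholangiocyte, 6 blood and 1 pancreatic marker genes, 0 were called on either scaling in limma, with 0 to 2 of a list at an unadjusted p under 0.05 and 1 blood gene called by voom on recovered reads. The summed Kupffer markers spanned 64.5 to 106 TPM and 57.0 to 117 TPM, those of stellate cells 9.87 to 18.9 and 14.1 to 19.5 TPM, of endothelial cells 16.4 to 27.1 and 21.0 to 26.6 TPM, of cholangiocytes 10.2 to 17.4 and 14.7 to 18.2 TPM, of blood 609 to 2112 and 1013 to 2013 TPM, of pancreas 4.94 to 9.00 and 5.2 to 10.2 TPM, in vehicle SP and G108 HP in turn. Adipocyte markers summed to at most 1.19 TPM and muscle markers to at most 0.0296 TPM in these 8 libraries, with Retn, Lep, Mb and Prss2 at 0 in all 8. In bulk tissue fewer cells of a type and less RNA per cell cannot be told apart.

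In G108 HP, with limma on TPM, 474 genes were higher than in vehicle SP (4.00% of those tested) and 57 were lower (0.481%), with a median log2 fold change over all tested genes of 0.245. TPM are shares of a fixed total, and the share held by the major urinary protein (Mup) transcripts differed between the groups. A second fit therefore divided each library by its median-of-ratios size factor (0.683 to 0.967 in vehicle SP, 0.842 to 1.24 in G108 HP), which brought the median to 0.001. The lowest factor, 0.683, was that of vehicle SP mouse 4 and the highest, 1.24, that of G108 HP mouse 4. TPM thus ran low and high across genes in these libraries. After this scaling 167 genes were higher (1.41%) and 168 were lower (1.42%). Both fits called 222 genes in the same direction, 167 higher and 55 lower, and 0 in opposite directions. In 157 and 48 of them the 4 and 4 mice did not overlap on either scale. Lack of overlap largely follows from a call, and its share over all tested genes is not given. The counts of 157 and 48 therefore describe the called genes and are no added support. Of the 167 genes 133 were protein-coding, and of the 55 genes 39. All 167 genes higher after scaling were among those higher on TPM, while 307 genes were called higher only on TPM and 113 lower only after scaling. The median absolute log2 fold change was 1.11 over the 57 genes lower on TPM and 0.76 over the 474 higher, and after scaling it was 0.81 for the falls and 0.85 for the rises. Of the genes called on TPM, 71 of the 474 higher averaged under 1 TPM in vehicle SP and 8 of the 57 lower averaged under 1 TPM in G108 HP, so that they passed the filter through libraries where they were more abundant. At an unadjusted p under 0.05 limma had 2878 genes on TPM (24.3% of those tested) and 1592 after scaling (13.4%), and voom on recovered reads called 1837 of 11811 (15.6%).

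**Figure D1:**
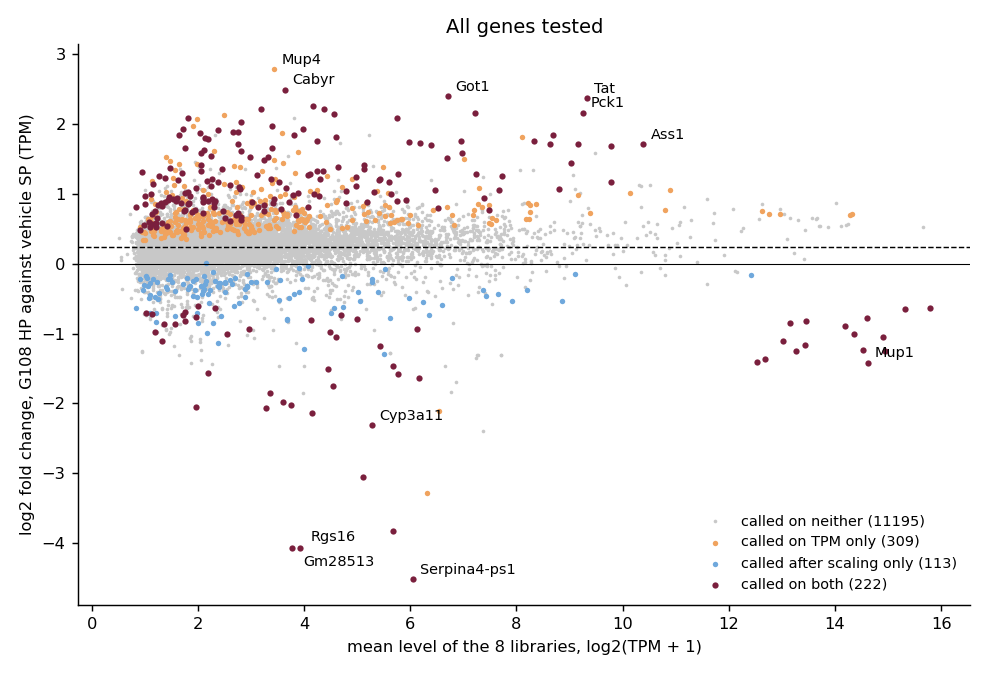
Each point is 1 of the 11839 tested genes, with the log2 of its mean TPM + 1 across and its log2 fold change on TPM, G108 HP against vehicle SP, upwards. Dark red points (222) were called on both scalings, orange (309) only on TPM, blue (113) only after median-of-ratios scaling and grey (11195) in neither, and the dashed line at 0.245 marks the median of all genes.

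The largest rises called on both scalings without overlap between the mice were in Cabyr, Got1, Tat, Etnppl, Fads3, Pck1, Nnmt, Cyp17a1, Plk3 and Sik1. Tat encodes tyrosine aminotransferase, the first enzyme of tyrosine breakdown (ENSMUSG00000001670, chr8:109990437-109999803 on GRCm38). It stood at 345, 205, 175 and 136 TPM in the vehicle SP mice and at 972, 1123, 865 and 1296 TPM in the G108 HP mice. The lowest treated mouse was well above the highest untreated one, and the log2 fold change was 2.37 ± 0.33 (SE) on TPM (limma adjusted p = 0.0012) and 2.04 after scaling. Got1, the cytosolic aspartate transaminase that moves nitrogen towards the urea cycle (chr19:43499752-43524605), read 50.8, 38.7, 25.9 and 16.8 TPM without treatment and 155, 138, 121 and 284 TPM with it. Its mean rose 5.28-fold, by 2.40 ± 0.33 (SE) on the log2 scale (adjusted p = 0.00117), with G108 HP mouse 4 the highest and vehicle SP mouse 4 the lowest. The libraries of these mice also had the highest and lowest size factors of those compared. Pck1, phosphoenolpyruvate carboxykinase and a rate-controlling enzyme of gluconeogenesis (chr2:173153048-173159273), was at 469, 264, 214 and 78.8 TPM in vehicle SP and at 954, 996, 774 and 1157 TPM in G108 HP. Every treated mouse again exceeded every untreated one, although the untreated mice spread widely, and the log2 fold change was 2.16 ± 0.40 (SE, adjusted p = 0.00615).

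Other rises had lower levels or tighter groups. Cabyr, a calcium-binding protein best known from sperm tails, went from 3.49, 2.78, 1.68 and 2.92 TPM to 15.5, 27.6, 23.4 and 14.2 TPM, a log2 fold change of 2.49 ± 0.31 (SE, adjusted p = 0.000815) and the largest rise of those named by rule. Sik1, a salt-inducible kinase whose gene is switched on by cyclic AMP, measured 2.56, 1.62, 1.36 and 1.48 TPM in vehicle SP and 7.25, 12.3, 10.5 and 11.1 TPM in G108 HP. Both genes had groups far apart for their spread. Plk3, a stress-responsive polo-like kinase, read 30.1, 8.61, 16.5 and 26.6 TPM against 65.6, 121, 97.6 and 57.9 TPM. Nnmt, which methylates nicotinamide, was at 111 TPM in vehicle SP mouse 1 and at 38.3, 46.1 and 37.0 TPM in the others, against 199 to 302 TPM in G108 HP. Etnppl, an ethanolamine-phosphate lyase, rose by 2.26 on the log2 scale, Fads3, of the fatty acid desaturase family, by 2.21 and Cyp17a1, a steroid hydroxylase, by 2.14 (adjusted p = 0.00132, 0.00435 and 0.0152). The Cyp17a1 call was lost when G108 HP mouse 4 was left out (adjusted p = 0.0591), and the other 9 were called without any of the 8 mice in turn.

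The 10 largest falls were in Rgs16, Cyp3a11, Depp1, Serpina12, Arrdc3, Slc22a7, Rarres1, Selenbp2, Orm3 and Mup1. Rgs16, which speeds the shut-off of G protein signals (chr1:153740349-153745468), had 13.2, 43.7, 36.0 and 18.4 TPM in vehicle SP and 0.789, 0.505, 0.322 and 0.603 TPM in G108 HP. All 4 treated mice were below 1 TPM, and the gene fell by 4.07 on the log2 scale (SE 0.49, adjusted p = 0.000815). The antisense gene Gm28513 overlaps it and fell by 4.06 on the same scale, and since counting by strand was not stated, reads of the pair cannot be told apart. Cyp3a11, a cytochrome P450 of drug and steroid metabolism (chr5:145854426-145879964), was at 31.6, 76.7, 95.4 and 51.5 TPM against 21.4, 7.69, 7.56 and 11.8 TPM. Its mean was 5.27-fold lower after both interventions (log2 fold change -2.31 ± 0.43, SE, adjusted p = 0.00587), with G108 HP mouse 1 nearest to the untreated range. Slc22a7, an organic anion transporter (chr17:46432183-46438457), was tight in the untreated group at 16.9, 19.4, 20 and 16 TPM and lay at 6.11, 2.90, 1.97 and 5.47 TPM in the treated group. It fell by 1.98 on the log2 scale on TPM and fell by 2.31 after scaling, without overlap.

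Depp1, known as a target of FOXO factors, fell from a mean of 27.8 ± 11.5 to 5.65 ± 3.41 TPM (SD, n = 4 each), and Serpina12, the secreted serpin vaspin, from 14.8 ± 6.79 to 2.65 ± 0.926 TPM. Arrdc3, an arrestin-domain protein that sorts membrane receptors, fell from 20.3 ± 4.31 to 4.71 ± 2.95 TPM. The retinoid-responsive Rarres1 fell from 15 ± 6.12 to 3.36 ± 1.45 TPM and Selenbp2, a selenium-binding protein more abundant in male liver, from 76.5 to 157 TPM in the untreated mice to 21.3 to 42.3 TPM in the treated ones. These genes had adjusted p-values of 0.00112 to 0.00587 on TPM. Orm3, an acute phase orosomucoid, was the least certain of the 10, with vehicle SP mouse 4 at 13.2 TPM and the other 3 at 2.58 to 4.64 TPM, against 0.797 to 1.56 TPM in G108 HP (adjusted p = 0.0112). All 10 falls were called with each of the 8 mice left out. The pseudogene Serpina4-ps1 (chr12:104080649-104086724), singled out after its values were seen, went from 104, 115, 183 and 97.4 TPM to 5.87, 8.89, 5.35 and 0.883 TPM. Its fitted change of -4.52 on the log2(TPM + 1) scale was the largest of any tested gene, beside -4.07 for Rgs16, while by the ratio of mean TPM it fell 23.8-fold and Rgs16 50.2-fold.

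**Figure D2:**
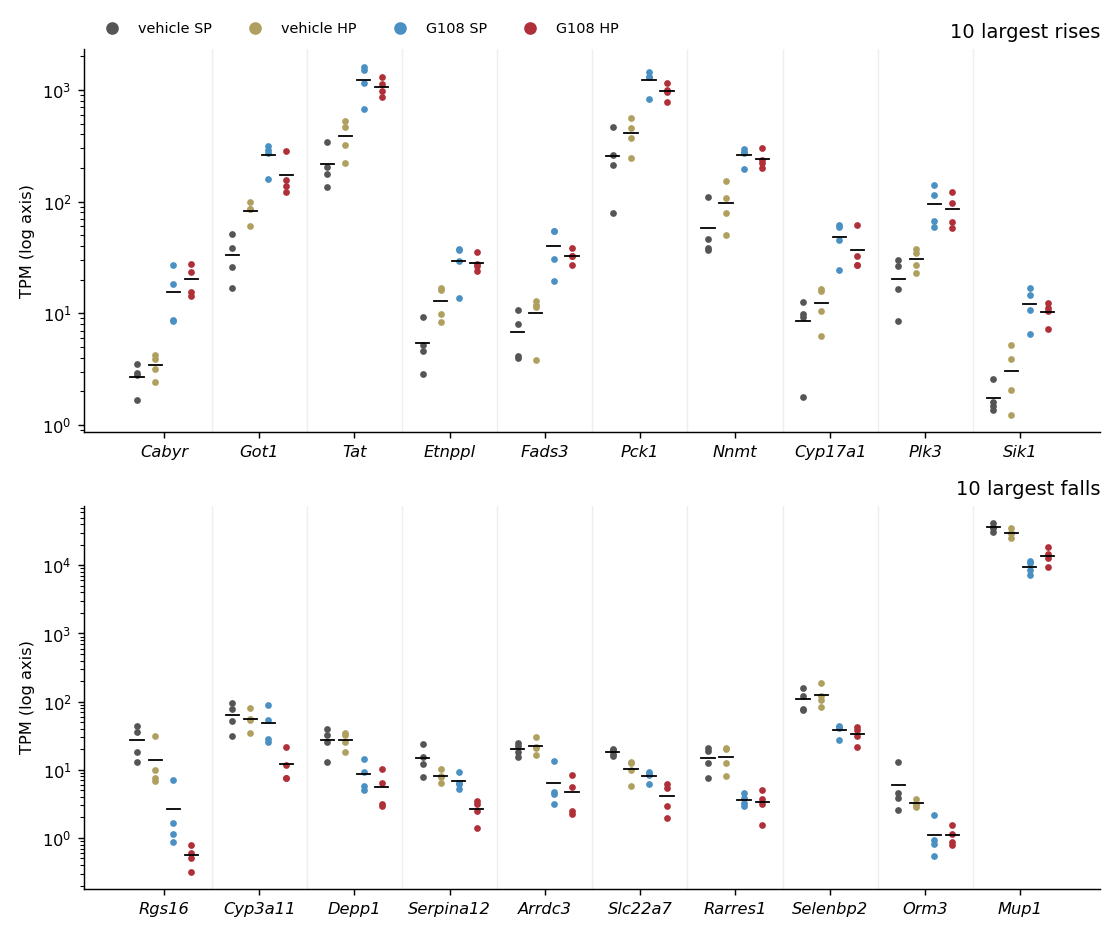
TPM in each mouse on a log axis for the 10 largest rises and 10 largest falls named by rule, in all 4 groups, with points for mice and bars for group means. The rule admitted only genes whose 4 G108 HP points lie apart from the 4 vehicle SP points, and of the 20 Rgs16 shows the widest gap.

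Few genes of the receptor and its signalling chain were called. Gcgr, the glucagon receptor, was at 114, 148, 131 and 278 TPM in vehicle SP and 140, 163, 172 and 144 TPM in G108 HP. Means of 168 ± 74.8 and 155 ± 15 TPM (SD, n = 4) overlapped, and the log2 fold change of -0.03 had an adjusted p of 0.923. Of 14 tested genes for the receptor, adenylyl cyclases, protein kinase A and CREB coactivators, 0 rose and 1 fell on both scalings, Rgs16, with a list median of 0.33 on TPM and 0.03 after scaling. Prkaca, the catalytic subunit of protein kinase A, had a log2 fold change of 0.40 and Pde4b, which degrades cyclic AMP, 0.53, and neither was called.

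The known response genes of glucagon and cyclic AMP were counted as a list. Of 17 tested, 14 rose and 0 fell on TPM, and 9 rose and 0 fell after scaling, with medians of 1.33 and 1.06 against 0.245 and 0.001 over all genes. Beside Pck1, Tat, Sik1, Cabyr and Cyp17a1 they held Kiss1, a liver-secreted peptide precursor induced by glucagon, at 8.53, 3.91, 3.81 and 5.10 TPM in vehicle SP and 18, 23.7, 20.8 and 21.0 TPM in G108 HP. Kiss1 rose by 1.84 ± 0.24 (SE) on the log2 scale (adjusted p = 0.00093). Golt1a and both identifiers of Gm28040 overlap its locus and rose by 0.92, 1.26 and 1.93 on TPM. Reads may be shared between these genes and Kiss1. G6pc, glucose-6-phosphatase, which releases free glucose, stood at 28.0, 63.5, 37.7 and 28.8 TPM against 87.1, 118, 120 and 184 TPM (log2 fold change 1.69, adjusted p = 0.00878). Ppargc1a, the coactivator PGC-1 alpha, was scarce at 0.741 ± 0.279 TPM and reached 2.18 ± 0.481 TPM, and the transcription factor Klf15 went from 36.3 ± 4.52 to 69.5 ± 15 TPM. Ppargc1a averaged 0.741 TPM in vehicle SP and 0.907 TPM in vehicle HP. It passed the filter only through the G108 groups, where it was high. Nr4a1 also averaged under 1 TPM in vehicle SP and passed the filter through other groups. The immediate early genes Nr4a1 and Dusp1 and the CREB-family repressor Crem rose by 1.43, 1.33 and 0.71 on TPM and were not called after scaling (adjusted p = 0.0981, 0.126 and 0.0517). Irs2 and the clock gene Per1 likewise rose on TPM alone. Fgf21, Creb3l3 and Lpin1 had log2 fold changes of 0.28, 0.22 and 0.01, and were not called.

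CREB is known to bind the palindrome TGACGTCA and its shorter form TGACG. Of 14 rising genes with a RefSeq promoter, from the 10 largest rises and the response list, 8 held TGACG and 6 did not, namely Got1, Tat, Etnppl, Fads3, G6pc and Irs2. The 4 promoters printed were picked for holding a match, first to the palindrome and then by the size of the rise, to show where the letters lie. They come from RefSeq on GRCm38.p6, run 5′ to 3′ on the strand of the gene over the 250 bases before the start site, and carry matches to TGACG or its reverse complement CGTCA in capitals. The windows are chr17:26508473-26508722, minus strand, for Dusp1, a phosphatase that silences MAP kinases, chr2:173152823-173153072, plus strand, for Pck1, chr4:117133964-117134213, minus strand, for Plk3 and chr1:133326962-133327211, plus strand, for Kiss1.
Dusp1: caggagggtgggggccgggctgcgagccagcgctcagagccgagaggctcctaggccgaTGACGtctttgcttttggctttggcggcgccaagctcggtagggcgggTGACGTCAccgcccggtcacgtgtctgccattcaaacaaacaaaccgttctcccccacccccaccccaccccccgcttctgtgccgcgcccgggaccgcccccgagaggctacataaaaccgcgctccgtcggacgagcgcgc
Pck1: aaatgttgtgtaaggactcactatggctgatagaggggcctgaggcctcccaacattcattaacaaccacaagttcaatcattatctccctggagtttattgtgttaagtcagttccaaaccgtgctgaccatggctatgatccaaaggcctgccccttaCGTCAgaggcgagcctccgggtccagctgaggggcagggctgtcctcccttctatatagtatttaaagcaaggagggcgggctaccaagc
Plk3: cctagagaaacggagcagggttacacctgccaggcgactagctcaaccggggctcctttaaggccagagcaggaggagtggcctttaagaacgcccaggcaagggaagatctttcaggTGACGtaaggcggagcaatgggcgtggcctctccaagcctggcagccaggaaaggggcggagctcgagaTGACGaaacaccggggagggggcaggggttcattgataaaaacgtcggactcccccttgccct
Kiss1: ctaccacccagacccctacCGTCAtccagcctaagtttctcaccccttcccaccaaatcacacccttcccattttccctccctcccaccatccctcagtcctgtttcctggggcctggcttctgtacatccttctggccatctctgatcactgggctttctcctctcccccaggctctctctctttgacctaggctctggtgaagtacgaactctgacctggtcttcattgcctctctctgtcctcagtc
The Dusp1 window holds the whole palindrome from position -143 relative to the start site, counted as a TGACG match on each strand, and a further TGACG from -191. Pck1 has its match from -90, Plk3 from -132 and -63, and Kiss1 from -231.

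Both motifs were searched on both strands from 250 bases before to 50 after each start site, and TGACG lies within TGACGTCA. Of the 11839 tested genes 7647 matched a RefSeq promoter, and 36.4% of those held TGACG and 3.52% TGACGTCA. Among genes called higher on both scalings the shares were 41.1% (44 of 107) and 5.61% (6 of 107), and among all genes called higher on TPM 34.2% and 3.48%. Of the 13 glucagon and cyclic AMP response genes with a promoter, 9 held TGACG (69.2%) and 1 held TGACGTCA (7.69%). Of genes called lower on TPM, 15.2% held TGACG and 0 of 33 held TGACGTCA, and after scaling 19.8% and 0.943% did. Mup features were 24 of the 57 genes called lower on TPM and 23 of the 168 after scaling. They are near-identical copies whose promoters may repeat the same letters, so these shares do not describe falling genes in general. How many of the 33 genes with a promoter were Mup genes is not given. In all these sets a gene counted if any of its RefSeq promoters held the motif. Over all 32851 RefSeq promoters, each counted singly, the shares were 20.8% and 1.79%, a different unit from the shares per gene. A match describes the letters of the window and not a bound site.

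Genes of amino acid disposal were taken step by step. The urea cycle turns ammonia and aspartate into urea, and 4 of its 8 tested genes rose on both scalings while 0 fell, with medians of 1.18 on TPM and 0.85 after scaling. Ass1, argininosuccinate synthase (chr2:31470207-31520672), was at 959, 652, 586 and 336 TPM in vehicle SP and at 2267, 1551, 1315 and 3051 TPM in G108 HP. Its log2 fold change was 1.71 ± 0.31 (SE, adjusted p = 0.00567), with mouse 4 at the bottom of the untreated group and mouse 4 at the top of the treated one. As given above, these libraries also held the lowest and highest size factors of those compared. Asl, which splits argininosuccinate, stood at 103, 88.1, 80.0 and 73.9 TPM against 196, 174, 190 and 295 TPM (log2 fold change 1.28, adjusted p = 0.00366). Slc25a15, the mitochondrial ornithine carrier, and Arg1, arginase, rose by 1.36 and 1.07 on TPM (adjusted p = 0.0117 and 0.0226), and the Arg1 call was lost without G108 HP mouse 1 or mouse 4 (adjusted p up to 0.0792).

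The first step of the cycle did not pass the test. Cps1, carbamoyl-phosphate synthetase, was at 179, 164, 201 and 58.7 TPM in vehicle SP and 392, 248, 221 and 664 TPM in G108 HP. The groups did not overlap, and the log2 fold change of 1.33 ± 0.43 (SE) had an adjusted p of 0.0881. Nags, which makes the activator of Cps1, had a log2 fold change of 0.57 and Otc, ornithine transcarbamylase, 0.46 (adjusted p = 0.138 and 0.205), with overlapping mice. The related carrier Slc25a21 was at 1.54 ± 0.299 and 1.70 ± 0.452 TPM, and Cad, which starts pyrimidine synthesis from the same kind of intermediate, at 0.965 ± 0.116 and 1.46 ± 0.121 TPM (SD, n = 4, adjusted p = 0.129).

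Carriers bring amino acids into the cell and the mitochondrion. Of 12 tested 7 rose and 0 fell on TPM, and 6 rose and 1 fell after scaling (medians 0.86 and 0.56). Slc7a2, the cationic carrier for arginine and ornithine, was at 51.2, 28.0, 21.4 and 16.8 TPM in vehicle SP and 93.0, 76.6, 71.1 and 140 TPM in G108 HP (log2 fold change 1.74 ± 0.30, SE, adjusted p = 0.00443). The mitochondrial glutamate carrier Slc25a22 and the glutamate transporter Slc1a2 rose by 1.21 and 1.02 and the neutral carrier Slc38a2 by 0.98 on TPM (adjusted p = 0.00377, 0.00366 and 0.00443). Slc38a2 was tight in vehicle SP at 7.32 to 9.16 TPM, below the treated range of 15 to 21.1 TPM. Slc38a4, Slc16a10, which carries aromatic amino acids, and the glutamine carrier Slc38a3 rose by 0.94, 0.88 and 0.63, and each of the 3 calls was lost without any of 3 to 6 of the mice, G108 HP mouse 4 among them (adjusted p up to 0.134, 0.0787 and 0.162). Slc6a9, a glycine transporter, went the other way and fell after scaling (-0.55, adjusted p = 0.0124), with 5.27 ± 1.17 and 4.14 ± 0.419 TPM.

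Breakdown of aromatic amino acids and tryptophan had 7 rises and 0 falls among 13 genes on TPM, and 6 and 0 after scaling (medians 0.80 and 0.48). Tyrosine breakdown starts with Tat, described above. Hpd, the dioxygenase that follows Tat, read 552, 583, 587 and 427 TPM in vehicle SP and 1261, 1043, 940 and 1657 TPM in G108 HP, without overlap. Hpd and the next enzyme, the ring-opening dioxygenase Hgd, rose by 1.17 and 1.25 on the log2 scale on TPM (adjusted p = 0.00171 and 0.0094). The last enzymes of the tyrosine path, Gstz1 and Fah, had log2 fold changes of 0.32 and 0.27 on TPM and -0.00 and -0.06 after scaling and were not called. In tryptophan breakdown Acmsd, which steers the pathway away from NAD synthesis, rose from 5.33, 2.95, 2.51 and 2.41 TPM to 16.5, 12.5, 11.7 and 22.3 TPM (log2 fold change 1.97, adjusted p = 0.00132). Kynu, kynureninase, rose by 0.97 and lost its call without any of 5 mice (adjusted p up to 0.13), while Tdo2 and Kmo, with 0.80 and 0.45, were not called.

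Enzymes that deaminate serine, threonine, glycine, histidine and proline gave 5 rises on TPM and 2 after scaling among 17 tested gene identifiers, with 0 falls (medians 0.65 and 0.35). Sds, serine dehydratase, which makes pyruvate from serine (chr5:120476526-120483932), was at 189, 147, 93.8 and 161 TPM in vehicle SP and 410, 502, 490 and 559 TPM in G108 HP. The lowest treated mouse had more than any untreated one, and the log2 fold change was 1.76 ± 0.25 (SE, adjusted p = 0.00132). Oat, ornithine aminotransferase, went from 262 ± 73.9 to 883 ± 327 TPM (SD, n = 4) and rose by 1.72. The Sds relative Sdsl rose by 1.22, Agxt, which moves the amino group of alanine to glyoxylate, by 1.09 and Ftcd, of histidine breakdown, by 0.56, all on TPM alone. Histidine ammonia-lyase Hal and urocanase Uroc1 had log2 fold changes of 0.75 and 0.64 (adjusted p = 0.088 and 0.0602).

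Among 10 transaminases and glutamate enzymes 2 rose on both scalings, Got1 and the liver glutaminase Gls2 (chr10:128194457-128210004), which stood at 79.7, 66.4, 52.1 and 46.1 TPM in vehicle SP and 182, 154, 147 and 266 TPM in G108 HP. Gls2 frees ammonia from glutamine next to the urea cycle, and its log2 fold change was 1.59 ± 0.22 (SE, adjusted p = 0.00122). The mitochondrial partner Got2 had 0.36, the alanine transaminases Gpt and Gpt2 0.48 and 0.60 and glutamate dehydrogenase Glud1 0.19, and none of these was called. Branched-chain, lysine and sulphur amino acid enzymes had 5 rises on TPM and 4 after scaling among 19 (medians 0.49 and 0.26). The rises lay in sulphur and methyl metabolism and lysine breakdown: Cth by 1.76, Gnmt by 1.69, Cbs by 1.16 and Aass by 1.00, with the branched-chain subunit Dbt at 0.78 on TPM alone. Gnmt, glycine N-methyltransferase, read 456, 484, 543 and 173 TPM against 1467, 882, 777 and 2247 TPM, and its call was lost without G108 HP mouse 4 (adjusted p = 0.0526). The Cbs call was lost without any of 3 of the 8 mice and the Aass call without any of 4, G108 HP mice 1 and 4 among them (adjusted p up to 0.0805 and 0.0963). Of the 12 tested gene identifiers of the amino acid starvation response driven by ATF4, 0 were called on either scaling in limma. At a limma unadjusted p under 0.05 there were 7 and 4, against 24.3% and 13.4% of all tested genes. By voom 3 were called, against 15.6% of all genes. Atf5 had a log2 fold change of 1.04 (adjusted p = 0.124) and Trib3 -0.53.

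**Figure D3:**
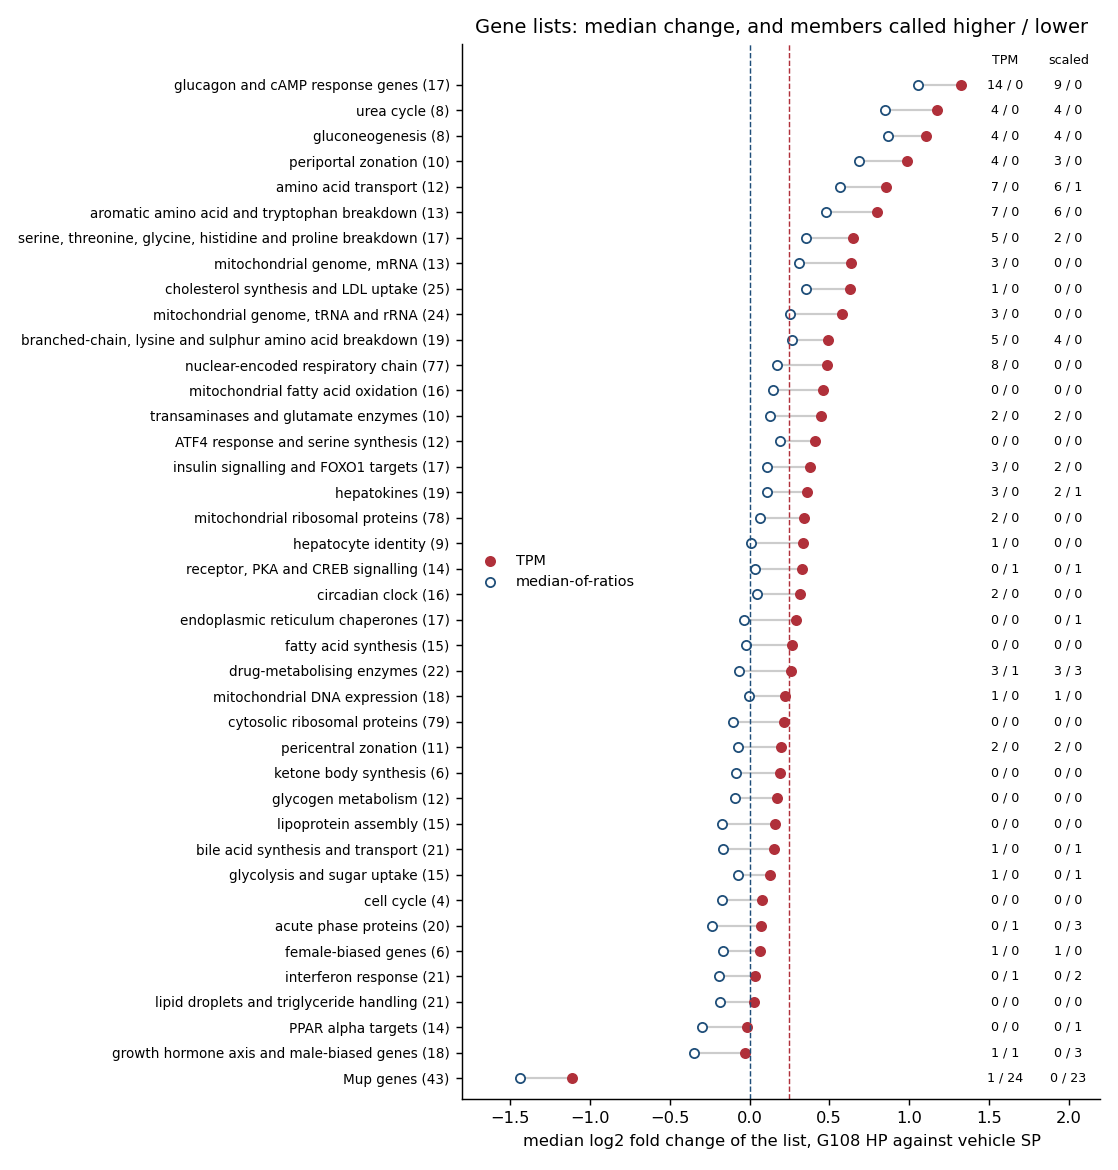
Median log2 fold change of the tested members of each gene list, G108 HP against vehicle SP, on TPM (filled red) and after median-of-ratios scaling (open blue), with the number of members called higher and lower beside each. Dashed lines at 0.245 and 0.001 mark the medians of all tested genes, and the lists for glucagon response, urea cycle, gluconeogenesis and amino acid handling lie to the right of them, with the Mup genes far to the left at -1.11 and -1.44.

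Glucose production and glycogen storage are both under glucagon control. Of 8 gluconeogenic genes 4 rose on both scalings and 0 fell (medians 1.10 and 0.865), Pck1, G6pc, Ppargc1a and Slc25a25, a mitochondrial ATP-magnesium carrier that went from 9.90 ± 2.67 to 36.9 ± 5.36 TPM (SD, n = 4). Among them Ppargc1a passed the filter only through the G108 groups, where it was high. Fbp1, fructose bisphosphatase, was at 188, 256, 245 and 51.3 TPM in vehicle SP and 530, 273, 229 and 762 TPM in G108 HP. Its mice overlapped and the log2 fold change of 1.34 had an adjusted p of 0.107. Pyruvate carboxylase Pcx had a log2 fold change of 0.06. In glycogen metabolism 0 of 12 genes were called on either scaling in limma (2 and 1 at an unadjusted p under 0.05, and 1 called by voom on the recovered reads), with medians of 0.17 and -0.09. The shares over all tested genes were 24.3%, 13.4% and 15.6% in the same order. Of 15 genes for glycolysis and sugar uptake the glucose transporter Slc2a1 rose on TPM alone and liver pyruvate kinase Pklr fell after scaling alone (-1.10, adjusted p = 0.0392).

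Insulin signalling genes and targets of FOXO1 had 3 rises among 17 on TPM and 2 after scaling. Irs1, an insulin receptor substrate, went from 1.84, 1.76, 1.38 and 0.839 TPM to 3.03, 3.53, 3.94 and 4.46 TPM (log2 fold change 0.96 ± 0.15, SE, adjusted p = 0.00239). Igfbp1, a secreted binding protein of insulin-like growth factors, went from 5.56, 4.33, 4.35 and 1.98 TPM to 11.4, 14.8, 10.1 and 14.9 TPM and rose by 1.49. The treated mice exceeded the untreated mice in both genes. Irs2 rose by 0.93 on TPM, lost its call after scaling (adjusted p = 0.0981) and without vehicle SP mouse 3, G108 HP mouse 2 or mouse 4 (adjusted p up to 0.0698).

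Few genes of lipid metabolism were called. No gene of fatty acid synthesis (0 of 15), mitochondrial fatty acid oxidation (0 of 16), ketone body synthesis (0 of 6), lipid droplets (0 of 21) or lipoprotein assembly (0 of 15) was called on either scaling in limma. Their medians on TPM were 0.27, 0.46, 0.19, 0.03 and 0.16, and after scaling -0.03, 0.15, -0.09, -0.18 and -0.17. At an unadjusted p under 0.05 the counts on TPM were 2, 4, 0, 3 and 3, and voom on the recovered reads called 2, 3, 0, 2 and 2, against 24.3% and 15.6% of all tested genes. Fasn, fatty acid synthase, was at 27.4, 57.4, 40.9 and 101 TPM in vehicle SP and 35.2, 55.3, 33.2 and 58.3 TPM in G108 HP. Scd1 spanned 148 to 494 TPM and 147 to 371 TPM. Untreated mice differed by more than 2-fold among themselves in both genes, and the groups overlapped. Cpt1a, the gate of fatty acid oxidation, had a log2 fold change of 0.54 (adjusted p = 0.255). Of 14 PPAR alpha targets 0 were called on TPM and Angptl4, an inhibitor of lipoprotein lipase, fell after scaling (-1.10, adjusted p = 0.0111).

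Cholesterol synthesis and uptake genes had a median log2 fold change of 0.63 over 25 genes on TPM and 0.35 after scaling. Bile acid genes had 1 rise on TPM, the receptor Fgfr4, and 1 fall after scaling, the repressor Nr0b2 (-0.95, adjusted p = 0.0223), among 21. Cyp7a1, the rate-limiting enzyme of bile acid synthesis, was at 10.6, 6.00, 16.3 and 5.95 TPM in vehicle SP and 35.6, 12.3, 29.1 and 79.7 TPM in G108 HP. G108 HP mouse 2 lay within the untreated range, and the log2 fold change of 1.73 ± 0.50 (SE) had an adjusted p of 0.0589.

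Major urinary proteins are small lipid-binding pheromone carriers that male mouse liver secretes in bulk. Their 49 genes and pseudogenes made up 49.7, 42.7, 47.9 and 42.6% of all TPM in vehicle SP and 29.6, 26.4, 18.2 and 23.5% in G108 HP. The mean share fell from 45.7 ± 3.59 to 24.4 ± 4.85% (SD, n = 4), without overlap, and the exact permutation test gave p = 0.0286, the smallest that 4 against 4 mice allow. With mitochondrial transcripts left out of the total the shares were 55.5 and 33.1% (exact p = 0.0286). Of 43 tested Mup features 24 fell and 1 rose on TPM, and 23 fell after scaling, with medians of -1.11 and -1.44. Mup1 (chr4:60498012-60501960) was at 41383, 31189, 35827 and 36519 TPM in vehicle SP and 18712, 14597, 9559 and 12717 TPM in G108 HP.

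The family did not move evenly. Mup17 fell by 1.36, Mup8 by 1.04 and Mup11 by 1.00 on the log2 scale, while the most abundant members, Mup22 and Mup10, fell by 0.63 and 0.65, from means of 68471 and 49822 TPM to 44729 and 32179 TPM. Mup20, the male pheromone darcin, was at 5940, 6039, 4842 and 2486 TPM against 4366, 5021, 3097 and 4586 TPM and was not called (log2 fold change -0.12, adjusted p = 0.763). Mup3 and Mup21 had log2 fold changes of -0.16 and -0.31 on TPM, where neither was called, and Mup3 was called lower after scaling (-0.48, adjusted p = 0.0482). Mup4 was the member that rose, from 2.36, 0.0424, 1.10 and 0.0275 TPM to 10.5, 3.64, 56.3 and 4.49 TPM (adjusted p = 0.0355 on TPM and 0.0968 after scaling). G108 HP mouse 3 carried most of that rise. Mup4 averaged under 1 TPM in vehicle SP, so that it passed the filter through libraries where it was more abundant. Its TPM call was lost without any of 5 mice, G108 HP mice 1 and 3 among them (limma adjusted p up to 0.0745). Mup genes are near-identical copies, so reads can be split between them and values of single members are less certain than the summed share.

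Transcripts of the mitochondrial genome, which encodes subunits of the respiratory chain and the RNAs to translate them, took up more of the treated libraries by mean but not without overlap. Their 37 genes made up 16.1, 16.2, 13.8 and 24.0% of TPM in vehicle SP and 21.0, 27.4, 37.3 and 21.0% in G108 HP. Means were 17.5 ± 4.44 and 26.7 ± 7.70% (SD, n = 4, exact permutation p = 0.0857), with vehicle SP mouse 4 above 2 of the treated mice. The difference of 9.17 percentage points was 5.63 without G108 HP mouse 3 (exact p = 0.114). As a share of TPM without the Mup genes they made up 32.1 ± 6.81 and 35 ± 8.18% (exact p = 0.629). On TPM 3 of 13 mitochondrial mRNAs rose, mt-Atp8, mt-Co1 and mt-Nd1, by 0.72, 0.69 and 0.76, and 0 were called after scaling, where the median was 0.31. At an unadjusted p under 0.05 the counts were 12 and 0, and voom called 1. Over all tested genes the shares were 24.3%, 13.4% and 15.6% in turn. mt-Co1 read 14465, 13257, 12749 and 19963 TPM in vehicle SP and 20000, 24383, 34162 and 19827 TPM in G108 HP, so that 1 treated mouse lay just below the highest untreated one. mt-Nd2, mt-Nd4, mt-Nd5, mt-Nd6, mt-Co2, mt-Cytb and mt-Atp6 had log2 fold changes of 0.51 to 0.65 on TPM, and were not called.

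Of 24 mitochondrial tRNA and rRNA genes 3 rose on TPM, mt-Tp, mt-Tg and mt-Tf, and 0 were called after scaling, while voom called 4. Nuclear genes of the respiratory chain had 8 rises among 77 tested identifiers on TPM, among them Atp5g1 (25.6 ± 4.30 and 42.1 ± 3.64 TPM), Cox6b1, Ndufs6 and Ndufa12, and 0 after scaling, with 64 and 9 at an unadjusted p under 0.05, where all tested genes had 24.3% and 13.4%, and 41 called by voom (15.6% of all genes), with medians of 0.49 and 0.17. Mitochondrial ribosomal proteins had 2 rises among 78 on TPM, Mrps18c and Mrps16, and 0 after scaling, and the 79 cytosolic ribosomal protein identifiers 0 on both (medians 0.22 and -0.10). At an unadjusted p under 0.05 the mitochondrial ribosomal list had 37 and 4, and voom called 25. The cytosolic list had 6 and 0, and voom called 2. Factors for mitochondrial DNA expression had Ppargc1a as their 1 limma call among 18, with Tfam and Polrmt at log2 fold changes of 0.22 each. Ppargc1a passed the filter only through the G108 groups, where it was high, and voom called 4 of the factors. Within the lists of mitochondrial genome, respiratory chain, mitochondrial ribosome and mitochondrial DNA expression, limma calls other than Ppargc1a were on the TPM scale only. Some genes of mitochondrial proteins outside these lists, Fh1, Idh2 and Slc25a51 among them, were called on both scalings. For mt-Atp8, mt-Co1 and mt-Nd1, 5 to 7 of the 8 mice each cost the call when left out, with adjusted p up to 0.107, 0.115 and 0.124.

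**Figure D4:**
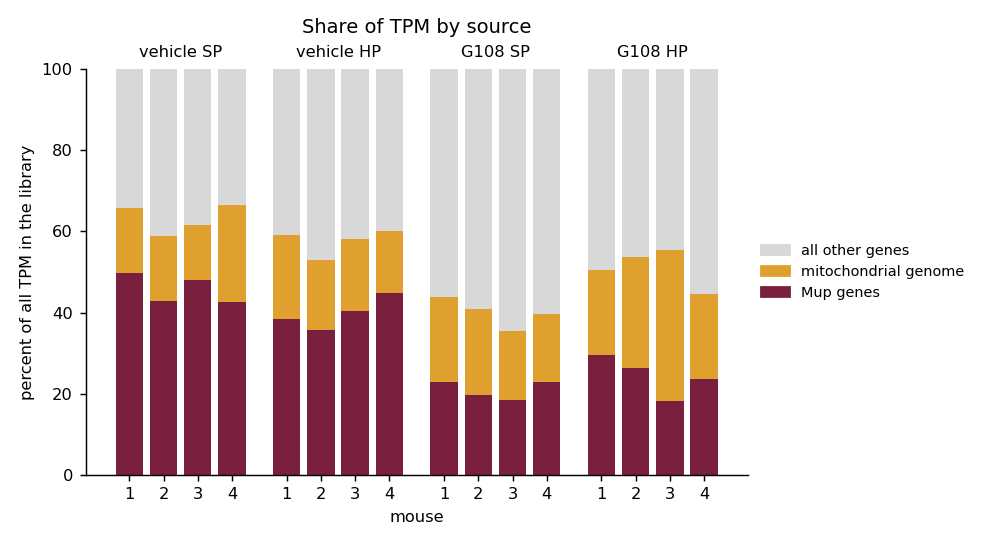
Stacked bars give, for each of the 16 mice, the percentage of TPM from Mup genes and pseudogenes, from the mitochondrial genome and from all other genes. In the G108 HP mice the Mup part spans 18.2 to 29.6% against 42.6 to 49.7% in vehicle SP, and the mitochondrial part reaches 37.3% in G108 HP mouse 3.

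Many liver genes differ between the sexes under the control of growth hormone. Of 18 growth hormone axis and male-biased genes 1 rose and 1 fell on TPM, and 0 rose and 3 fell after scaling (medians -0.03 and -0.35). The elongase Elovl3 rose on TPM (18.3 ± 9.96 and 39.3 ± 6.37 TPM, adjusted p = 0.0492), and 7 of the 8 mice each cost it the call when left out. Selenbp2 fell on both scalings, and Hsd3b5, a steroid reductase, and Cyp2d9 after scaling alone (-1.62 and -0.70). Igf1 was at 29.9 ± 2.98 and 39.9 ± 4.29 TPM (log2 fold change 0.40, adjusted p = 0.0978). Among 6 female-biased genes 1 rose, Cyp17a1.

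Of 22 drug-metabolising enzymes 3 rose and 1 fell on TPM, and 3 rose and 3 fell after scaling. The glutathione transferases Gsta1 and Gsta2 rose by 1.89 and 1.75, Gsta2 from 9.26, 7.57, 7.45 and 5.72 TPM to 38.9, 19.3, 22.1 and 33.2 TPM, and the sulphotransferase Sult1a1 by 1.05 (adjusted p = 0.00666, 0.00117 and 0.00545). Gsta1 and Gsta2 are close in sequence, so reads may be shared between them. Falls were in the cytochromes Cyp3a11 on both scalings and Cyp2c54 and Cyp2c37 after scaling (-1.06 and -0.92).

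Of 20 acute phase genes 0 rose and 1 fell on TPM, Orm3, and after scaling Saa4 and Cp, ceruloplasmin, were also lower (-0.81 and -0.73). Interferon-induced genes had 1 fall among 21 on TPM, the GTPase Iigp1, from 13.6, 24.4, 30.5 and 17.3 TPM to 12.7, 11.7, 8.17 and 13.2 TPM, and the peptide transporter Tap1 was lower after scaling. The Iigp1 groups were close at their edges, and 6 of the mice each cost it the TPM call when left out (adjusted p up to 0.115). Chaperones of the endoplasmic reticulum had 0 of 17 called on TPM, and the stress factor Xbp1 was lower after scaling (-0.73, adjusted p = 0.0292). Clock genes had 2 rises among 16 on TPM, Per1 and Nfil3, by 0.97 and 0.85, and 0 after scaling. Per1 stood at 6.08, 6.07, 6.01 and 9.88 TPM in vehicle SP and 11.6, 16, 15.1 and 15.1 TPM in G108 HP. Hepatokines, proteins the liver secretes as signals, had 3 rises among 19 on TPM, Kiss1, Igfbp1 and angiotensinogen Agt, and after scaling 2 rises, Kiss1 and Igfbp1, and 1 fall, Angptl4. The Agt call was lost after scaling (adjusted p = 0.0758) and without G108 HP mouse 1 or mouse 4 (adjusted p up to 0.07 on TPM). Gdf15, with 0.73, and Fgf21 were not called. Of 4 cell cycle genes 0 were called in limma (0 and 1 at an unadjusted p under 0.05).

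Genes typical of the liver lobule's ends were also counted. Periportal genes, which cluster where blood enters, had 4 rises among 10 on TPM, Sds, Gls2, Pck1 and Sdsl, and 3 after scaling, with medians of 0.985 and 0.685. Pericentral genes had 2 rises among 11, Slc1a2 and Oat, on both scalings, with medians of 0.20 and -0.08. The glutamine synthetase gene Glul, which marks the last cells before the central vein, was at 91.8, 172, 186 and 95.4 TPM and 179, 139, 98.3 and 198 TPM, overlapping. Sds, Gls2, Pck1, Oat and Slc1a2 stand also in the metabolic lists above. Among 9 hepatocyte identity genes 1 rose on TPM, Nr5a2, and 0 after scaling.

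The combination was then set beside each intervention alone. The 3 comparisons against vehicle SP share the same 4 control mice, so their values are given side by side. Tat had a mean of 215 TPM in vehicle SP, 386 in vehicle HP, 1240 in G108 SP and 1064 in G108 HP. Pck1 means were 256, 407, 1220 and 970 TPM in the same order, and Ass1 means 633, 1034, 2416 and 2046 TPM. Rgs16 had 27.8, 13.9, 2.67 and 0.555 TPM, and Mup1 36230, 29947, 9525 and 13896 TPM. Cyp3a11 means were 63.8, 56.1, 49.2 and 12.1 TPM, lowest in the combination, and those of Gsta2 were 7.5, 20.9, 22.8 and 28.4 TPM.

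Against vehicle HP, which shares the diet, 132 genes were called in G108 HP on TPM (1.11%), 97 higher and 35 lower, and 145 after scaling (1.22%), 76 higher and 69 lower. Of the 10 largest rises named above 4 were called on both scalings in that comparison, Cabyr, Tat, Fads3 and Sik1, and of the 10 largest falls 9 were, all but Orm3. These 20 genes were picked for extreme values in the same G108 HP mice. Their calls here are therefore not separate support, nor comparable with the share over all genes. Against G108 SP, which shares the drug, 0 genes (0%) were called on TPM and 0 after scaling in limma, with 5325 and 639 genes at an unadjusted p under 0.05 and a median log2 fold change of -0.351 on TPM. For the 20 genes named by rule, differences from G108 SP after scaling lay between -0.16 and 0.87 in the rises and between -1.44 and 0.98 in the falls, and the smallest adjusted p was 0.80. On TPM they lay between -0.61 and 0.45 and between -1.88 and 0.53, with the smallest adjusted p at 0.0721, for Cyp3a11 (-1.88) and Serpina12 (-1.11). A p above the threshold does not show that the combination and the drug alone acted alike.

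The mitochondrial share in G108 HP, 26.7%, was set against 18.9 ± 2.39% in G108 SP (exact p = 0.0857) and 17.7 ± 2.29% in vehicle HP (exact p = 0.0286). Without the Mup genes in the total it was 35% against 24.0 ± 3.17% in G108 SP (exact permutation p = 0.0286, the smallest possible) and 29.5 ± 3.09% in vehicle HP (exact p = 0.286). The Mup share of 24.4% was below the 39.9 ± 3.88% of vehicle HP (exact p = 0.0286), and G108 SP had 21.0 ± 2.33% (exact p = 0.257).

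**Figure D5:**
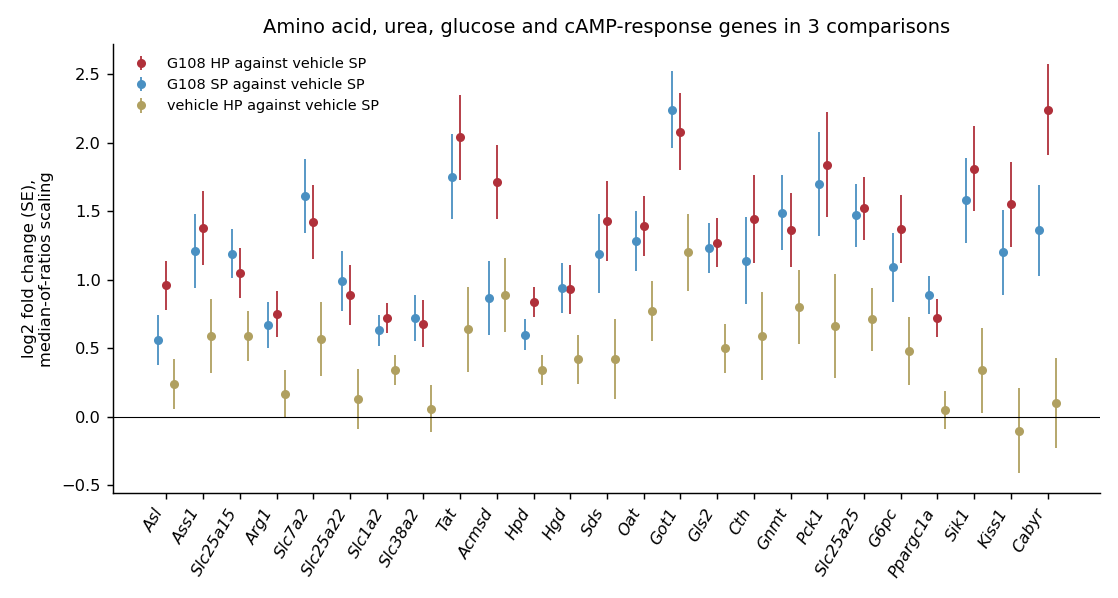
Log2 fold change after median-of-ratios scaling, with its standard error as bars, for 25 named genes in G108 HP, G108 SP and vehicle HP, each against the same vehicle SP mice. Tat stands at 2.04, 1.75 and 0.64 and Ass1 at 1.38, 1.21 and 0.59 in that order.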

How the data were processed

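RNA was extracted from whole liver with TRIzol and libraries were made by Novogene. According to the submitters' processing notes reads were checked with FastQC 0.11.8, aligned to GRCm38 with HISAT2 2.0.5 and counted with featureCounts, and the study's own tests used DESeq2 1.36.0. The authors deposited a table of TPM (reads per exon length, rescaled to a fixed total per library), and no counts of reads were used here. Coordinates and exon lengths of the genes came from a GENCODE annotation of GRCm38. Age, weeks of high-fat feeding and day of cull differ between the sample records and the study's methods, and the records were followed.

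All 16 libraries were fitted in 1 limma 3.58.1 trend model (R 4.3.3) on log2(TPM + 1), without covariates, after a filter at a mean TPM of 1. A second fit used TPM divided by median-of-ratios size factors from 11591 genes above 0 in all libraries. Fold changes on the log2(TPM + 1) scale understate those of low genes. Whole reads were recovered from the steps of low values (tolerance 0.02 of a read) and served only for depth and for the voom alternative. Shares of TPM were compared by 2-sided exact permutation tests. Tables were handled with Python 3.11.15, pandas 2.3.3 and numpy 2.4.6, and the fits were tested on simulated data.

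Members and gene lists were chosen with earlier results of these data known, and lists are described by counts and medians without a set test. Named genes were the 10 largest rises and falls called on both scalings without overlap of mice (Gm numbers, Rik clones, pseudogenes and antisense genes left out), up to 5 called members of each list or its 2 most abundant where none was called, the glucagon receptor and the study's urea cycle and mitochondrial panels. Another 43 of the 173 genes held for naming were chosen after their values were seen, and so were other list members given only by a log2 fold change. The hepatocyte marker Tf was not matched, and results of some list members are not reported here. Alternatives were the pseudocount, the filter, the scaling, a fit of 8 libraries, replicate blocks, array weights, a GC covariate, voom and leaving out each mouse. Promoters came from RefSeq tables on GRCm38.p6.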

Additional observations from a re-analysis of the deposited data

Results flagged for a closer look

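Single values far from the rest of their group were looked for in vehicle SP and G108 HP, with 4 mice each, by the gap of the highest or lowest mouse to its nearest neighbour over the range of the group. Of 350 such tests 14 stood out, and chance alone flags about 1 in 20 groups, or 5%. Values are given without an explanation, which was not tested.

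G108 HP mouse 3 stood apart in 7 of the 14. It was the highest of its group for mt-Tg at 3898 TPM, for mt-Nd5 at 4527 TPM and for Mup4 at 56.3 TPM. It was the lowest for Atp5g1 at 36.7 TPM, Cox6b1 at 189 TPM, Mup3 at 3916 TPM and Mup21 at 520 TPM. The same mouse had the highest mitochondrial share of all 16 libraries, 37.3% of TPM, and the lowest Mup share, 18.2%. G108 HP mouse 4 was apart in Acly, ATP citrate lyase, at 64.7 TPM, with the other 3 treated mice at 23.4 to 29.2 TPM.

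In vehicle SP, mouse 1 was high in Nnmt at 111 TPM and low in Cad at 0.792 TPM. Mouse 4 was low in Slc25a15 at 10.9 TPM and high in Per1 at 9.88 TPM. Mouse 2 was high in Etfb, an electron transfer flavoprotein subunit, at 211 TPM and in Ndufs6, a complex I subunit, at 43.2 TPM. Of these genes Nnmt, Slc25a15 and Per1 kept their call on TPM with each of the 8 mice left out.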

How the results depend on the processing

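The 531 calls on TPM became 339 with no filter on low genes, 188 in a fit of only the 8 libraries compared (153 higher, 35 lower), 335 after median-of-ratios scaling (167 and 168), 1565 with array quality weights, 1837 with voom on recovered reads (1748 and 89) and 4753 when TPM was rescaled over non-mitochondrial genes (4664 and 89). Rescaled without Mup and mitochondrial genes the fit called 378, of which 127 were higher and 251 lower. The 335 calls after median-of-ratios scaling became 208 at a mean TPM of at least 5, 112 in the fit of 8 libraries and 1205 with array weights. The cause of these moves was not tested. Every gene called both in the reported fit and under an alternative kept its direction. Without each mouse in turn the TPM count ranged from 236 to 650, and it fell by more than 1.5 times without vehicle SP mouse 1 (327) or mouse 3 (300) and without G108 HP mouse 1 (325), mouse 2 (281) or mouse 4 (236). After scaling the range was 183 to 387, with 183 and 210 without vehicle SP mouse 2 or 3 and 205 and 189 without G108 HP mouse 3 or 4. The Mup share difference ranged from -23.1 to -19.2 percentage points and the mitochondrial one from 5.63 to 11.3.

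With the mouse number as a replicate block the TPM count was 296 (252 higher, 44 lower), the scaled count 231, and the Mup share difference of -21.3 points had p = 0.125, the smallest a paired exact test of 4 pairs allows. Deviations of same-numbered mice correlated at 0.058, -0.211, -0.556 and -0.575 on TPM and no mouse correlated best with its own number. These values gave no sign of pairing by number. Deviations from means of 4 mice cannot settle it, and whether same-numbered mice shared handling was not tested.

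Of 103 named genes called on TPM, 66 were called with each mouse left out and 53 under all alternatives run. Depth was 30450000 reads or more in each of the 8 libraries, and genes averaging under 1 TPM were not tested.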

Other observations

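Genes outside the lists also differed on both scalings, and those given here were chosen after their values were seen. Hcar2, the receptor for the ketone body beta-hydroxybutyrate and for niacin, was at 0.237, 0, 0.0563 and 0.0918 TPM in vehicle SP and at 1.47, 1.5, 1.67 and 2.33 TPM in G108 HP. Its means were 0.0963 TPM in vehicle SP and 0.216 TPM in vehicle HP, so that it passed the filter at a mean of 1 TPM only through the G108 groups where it was high, and no test is given for it. Slc25a51, the carrier that brings NAD into mitochondria, went from 17.2, 10.6, 9.02 and 15.5 TPM to 30.8, 31.7, 34.9 and 41.9 TPM (log2 fold change 1.38, adjusted p = 0.00171). The citric acid cycle enzymes Fh1 and Idh2 rose by 1.72 and 1.05, from 34.2 ± 15.5 to 109 ± 28.7 TPM and from 16.9 ± 3.96 to 36.3 ± 10.6 TPM (SD, n = 4). Egln3, an oxygen-sensing prolyl hydroxylase, and the kinase Sgk1 rose by 1.53 and 1.36 (adjusted p = 0.00227 and 0.00132). Follistatin, Fst, a secreted binder of activins, was at 0.442 ± 0.182 and 1.91 ± 0.549 TPM and likewise passed the filter only through the G108 groups. Mfsd2a, a carrier of lysophospholipids, rose by 1.29 (adjusted p = 0.0179).

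In phospholipid and membrane genes Etnk2, an ethanolamine kinase, rose from a mean of 51.4 to 153 TPM (log2 fold change 1.51), beside the rise of Etnppl. The sodium pump subunit Atp1b1 rose by 1.32, the proteoglycan Sdc1 by 1.41, the antiproliferative Tob1 by 1.2, the mitochondrial and peroxisomal glutathione transferase Gstk1 by 1.05, the small heat shock protein Hspb8 by 0.91 and the EGF receptor inhibitor Errfi1 by 0.77. On the falling side the carboxylesterases Ces1g and Ces2c fell by 1.51 and 0.97, Ces1g with overlapping mice on TPM (15.2, 38.3, 50.2 and 21.4 TPM against 13.9, 7.45, 4.00 and 16.7 TPM). Osgin1, an oxidative stress response gene, was at 55.4, 49.4, 60.7 and 67.4 TPM in vehicle SP and 34.3, 28.8, 18.7 and 21.2 TPM in G108 HP, a clear gap, and fell by 1.18 (adjusted p = 0.00926). Hsd17b2, which inactivates sex steroids, fell by 0.73, Cyp2d40 by 0.80 and the LIM protein Csrp3 by 0.81. Aacs, which activates acetoacetate for lipid synthesis, was not called on TPM (-1.22, adjusted p = 0.0873) and was lower after scaling (-1.53, adjusted p = 0.0343).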
